A study of Homo sapiens with 2 samples.

Results

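The genes described here are 10 surface or secreted proteins through which tumour cells restrain immune cells: the B7-family ligands CD274, PDCD1LG2, CD276 and VTCN1, the nectin-family ligands PVR and NECTIN2, the galectin LGALS9, the phagocytosis checkpoint CD47, and the ectonucleotidases ENTPD1 and NT5E. They were chosen by gene symbol, and each had 1 probe set among the 17687 named genes of the array. The RNA came from MKN1 cells, a gastric cancer line of human origin, grown in medium with serum. One line overexpressed RHOA carrying the Y42C substitution and the other overexpressed wild-type RHOA, both from the pBABE vector under puromycin selection. RHOA, a GTPase of the RAS superfamily, regulates actin and myosin, and Y42C replaces a tyrosine with a cysteine. There was 1 array per line and none of parental or empty-vector cells, so no difference below carries a replicate error or a test, and each compares these 2 lines only. The labels do not say whether a line was a clone or a pool.

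Checkpoint ligands act by binding receptors on T cells, natural killer cells or macrophages. CD274 (PD-L1) and PDCD1LG2 (PD-L2) bind PD-1 and dampen T cells. PVR and NECTIN2 share receptors that either inhibit lymphocytes (TIGIT) or activate them (CD226). CD47 binds SIRPA on macrophages and blocks engulfment. ENTPD1 converts extracellular ATP and ADP to AMP, and NT5E converts AMP to adenosine, which suppresses T cells through the adenosine receptor ADORA2A. Interferon-gamma is the best-known inducer of PD-L1, acting through JAK kinases and the transcription factor IRF1.

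Of the 10 genes, 6 gave signal above the expression minimum on both arrays, and none of these 6 was 2-fold apart between the lines. The minimum was the level that 95% of 349 olfactory receptor genes did not pass, 5.14 on the Y42C array and 5.17 on the wild-type array, in log2 signal. NECTIN2 had the largest difference, 1.88-fold higher in the Y42C line, and LGALS9 followed at 1.56-fold higher. NT5E and CD47 were 1.28-fold and 1.16-fold lower, and PVR and CD276 differed by less. CD274, PDCD1LG2, VTCN1 and ENTPD1 lay below the minimum on both arrays.

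Signal was placed against background as follows. Of the 11802 genes above the minimum on at least 1 array, 7.46% were 2-fold or more higher in the Y42C line and 9.80% were lower by as much, against 0 of 6 members in each direction. At these shares a count of 0 among 6 genes is near the background. At 1.5-fold, 2 members were higher, beside 17.8% of all genes above the minimum, and 0 were lower, beside 23.4%. The median difference (Y42C minus wild-type, log2) was -0.02 over the 6 members and -0.07 over all genes above the minimum. Since probe sets differ in sensitivity, the members were not ranked against each other by signal. The minimum does set each gene beside olfactory receptor genes, so a value below it does not show that a transcript was absent. In bulk RNA, fewer cells with a transcript and less of it per cell cannot be told apart.

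**Figure D1:**
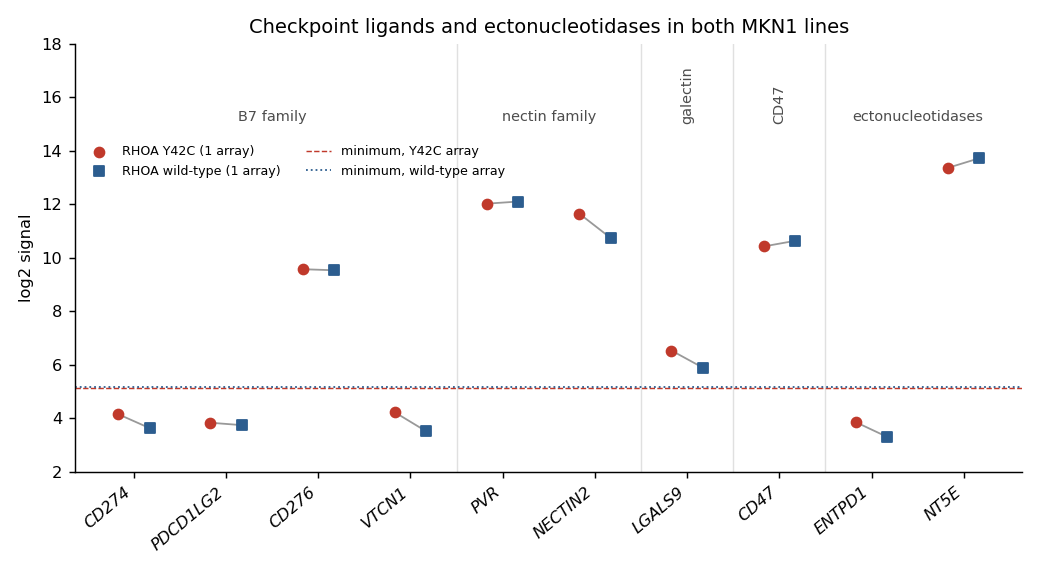
Log2 signal of the 10 genes on the Y42C array (red circles, left) and the wild-type array (blue squares, right), 1 array each, with the expression minimum of each array as a dashed or dotted line. CD274, PDCD1LG2, VTCN1 and ENTPD1 lie below both lines, and NECTIN2 shows the widest gap among the other 6 (11.66 in Y42C, 10.75 in wild-type).

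The promoters of 4 of the genes are shown. CD274 and LGALS9 hold an interferon-type motif, and PVR and NECTIN2 lie close together on chromosome 19 and differed unequally. IRF1 was lower in the Y42C line, LGALS9 was higher, and CD274 lay below the minimum on both arrays. A link between IRF1, or any motif, and these differences was not tested. Each runs from 250 bases before the gene's start to 50 after it, 5′ to 3′ on the gene's strand, from RefSeq on GRCh38.p14, with motif matches in capitals.
CD274 promoter, chr9:5450292-5450591, plus strand: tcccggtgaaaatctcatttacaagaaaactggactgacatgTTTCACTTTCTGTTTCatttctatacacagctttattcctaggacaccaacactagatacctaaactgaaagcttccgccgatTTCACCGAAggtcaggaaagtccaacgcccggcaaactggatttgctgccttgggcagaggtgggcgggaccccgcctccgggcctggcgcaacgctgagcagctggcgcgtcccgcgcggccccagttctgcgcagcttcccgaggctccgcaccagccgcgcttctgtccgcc
LGALS9 promoter, chr17:27630938-27631237, plus strand: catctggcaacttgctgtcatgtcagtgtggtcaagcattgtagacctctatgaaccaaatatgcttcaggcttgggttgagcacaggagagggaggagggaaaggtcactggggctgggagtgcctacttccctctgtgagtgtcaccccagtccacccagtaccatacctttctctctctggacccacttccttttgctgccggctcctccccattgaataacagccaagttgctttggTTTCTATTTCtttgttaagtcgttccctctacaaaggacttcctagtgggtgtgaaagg
PVR promoter, chr19:44643660-44643959, plus strand: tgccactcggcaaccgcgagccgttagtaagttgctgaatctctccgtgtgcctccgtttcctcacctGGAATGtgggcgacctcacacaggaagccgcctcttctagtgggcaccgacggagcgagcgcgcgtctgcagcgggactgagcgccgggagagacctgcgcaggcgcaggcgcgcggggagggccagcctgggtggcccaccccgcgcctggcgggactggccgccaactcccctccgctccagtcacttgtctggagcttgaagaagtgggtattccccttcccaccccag
NECTIN2 promoter, chr19:44846047-44846346, plus strand: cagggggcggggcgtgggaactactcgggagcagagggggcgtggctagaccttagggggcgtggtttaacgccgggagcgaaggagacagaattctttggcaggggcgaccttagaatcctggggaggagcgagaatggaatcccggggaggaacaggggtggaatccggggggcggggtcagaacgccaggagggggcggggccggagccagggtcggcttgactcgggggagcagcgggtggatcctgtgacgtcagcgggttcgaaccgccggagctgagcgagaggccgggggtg

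The promoter table held 9 of the 10 members in 14 windows; PDCD1LG2 was not among them. The letters searched on both strands were GAAA and GAAA with any 2 bases between them (interferon-stimulated response element core), TTCNNNGAA (STAT site), CACGTG (E-box, bound by MYC), GGAATG (TEAD site), TGACTCA or TGAGTCA (AP-1 site) and GGGAC joined to TTTCC (NF-kB site). The CD274 window held 2 overlapping interferon-type matches, TTTCACTTTC and TTTCTGTTTC on the printed strand, starting at positions -208 and -202, and a STAT-type match, TTCACCGAA, at -125. The LGALS9 window held 1 interferon-type match, TTTCTATTTC, at -9. Of all 35116 promoter windows, 3.57% held the interferon-type letters and 7.66% the STAT-type letters. The PVR window held 1 TEAD-type match at -182, letters found in 14.0% of windows. The NECTIN2 window held none of the letters searched. Outside these 4, VTCN1 had 1 AP-1-type match, at +2 (4.95% of windows). The E-box and NF-kB letters, in 7.26% and 0.191% of all windows, were in no member window. A match is a string of letters only, and no binding was measured here.

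Among the B7-family ligands, only CD276 gave signal above the minimum. CD276 (B7-H3), a ligand that restrains T cells and is common on carcinomas, had 9.58 log2 signal in the Y42C line and 9.54 in the wild-type line. The lines were almost level for this gene, with a difference of 0.04. CD274 had 4.16 in the Y42C line and 3.64 in the wild-type line, 0.98 and 1.53 below the minimum. PDCD1LG2 had 3.84 in the Y42C line and 3.75 in the wild-type line. VTCN1 (B7-H4), an inhibitor of T cell activation, had 4.23 in the Y42C line and 3.52 in the wild-type line. All 3 were within the range of the olfactory receptor genes: CD274 was brighter than 75.9% of them on the Y42C array and than 52.1% on the wild-type array. No fold is given for these 3 genes, because neither array measured them above background.

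Genes that regulate PD-L1, most of them inducers or stabilisers, differed in both directions. Of 22 listed genes, 19 were named here and 17 lay above the minimum, with a median of -0.13. In the Y42C line 1 was past 2-fold upwards and 2 downwards, beside 7.46% and 9.80% of all genes above the minimum. The 17 included IRF2 and PTPN2, which oppose interferon signalling, so these counts and the median mix opposite roles. IRF1 was 4.06-fold lower, with 6.07 in the Y42C line and 8.09 in the wild-type line. IRF2, which competes with IRF1 for the same sites, was 2.30-fold lower, with 7.74 in the Y42C line and 8.94 in the wild-type line. MYC, which can bind the CD274 promoter, was 4.20-fold higher, with 10.22 in the Y42C line and 8.15 in the wild-type line. JAK2, a kinase of interferon-gamma signalling whose gene is separated from CD274 by 5 measured genes, differed by -0.13 (5.75 in Y42C, 5.88 in wild-type). JUN (0.91), RELA (-0.95) and IRF9 (-0.90) lay towards the ends of the list without passing 2-fold. CMTM6, which protects PD-L1 from lysosomal breakdown, differed by -0.25 (9.86 in Y42C, 10.11 in wild-type), and EGFR by 0.04 (10.73 and 10.69). CD274 signal was below the minimum in both lines, so the differences of these regulators have no measured counterpart in it. Of 16 genes that act in PD-L1 degradation or glycosylation, all 16 lay above the minimum and none was 2-fold apart. Of all genes above the minimum, 7.46% were 2-fold higher and 9.80% 2-fold lower. The deubiquitinase OTUB1 (0.94) and the kinase GSK3B (0.62) were most positive, and the ubiquitin ligase STUB1 (-0.83) and FBXO22 (-0.72) most negative; OTUB1 reached 2-fold after each array was centred on its median.

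Relatives of the B7 family differed most among the butyrophilins. Of 15 other B7 and butyrophilin genes named here, 10 lay above the minimum, with a median of -0.49. Past 2-fold were 0 upwards and 2 downwards, beside 7.46% and 9.80% of all genes above the minimum. BTN3A2 was 3.89-fold lower, with 7.02 in the Y42C line and 8.98 in the wild-type line. BTN3A3 was 2.68-fold lower, with 6.91 in the Y42C line and 8.33 in the wild-type line. BTN3A1, which presents phosphoantigen signals to gamma-delta T cells, differed by -0.63, and BTN2A1 and BTN2A2 by -0.17 and -0.67, so all 5 genes of this pair of subfamilies, grouped after their values were seen, were lower in the Y42C line, as were 54.2% of all genes above the minimum. The BTN3A genes are so alike that probes may not separate them. NCR3LG1 (B7-H6), a ligand that activates natural killer cells, lay just short of 2-fold at -0.97. VSIR (VISTA), an inhibitory B7 relative, was the most positive at 0.39, followed by BTNL8 at 0.30. CD80 and CD86, the ligands of CD28 and CTLA4, were below the minimum on both arrays.

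The nectin family held the largest difference of the 10 genes. NECTIN2 (CD112) had 11.66 log2 signal in the Y42C line and 10.75 in the wild-type line, a difference of 0.91. It reached 2-fold once a trend of the difference on signal level was removed. Genes above the minimum were divided by mean signal into 20 bins of about 590 genes, to set each difference beside genes of like signal. In the bin of NECTIN2 the median difference was -0.11 and the scaled median absolute deviation 0.74, and 24.7% of the genes lay at least as far from 0. PVR (CD155) had 12.03 in the Y42C line and 12.11 in the wild-type line, and 91.0% of the genes in its bin lay at least as far from 0. NECTIN2 was thus higher in the Y42C line, while PVR, which shares receptors with it and is separated from it by 4 measured genes, was nearly level. Whether the 2 genes respond differently was not tested, since there were no replicates.

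**Figure D2:**
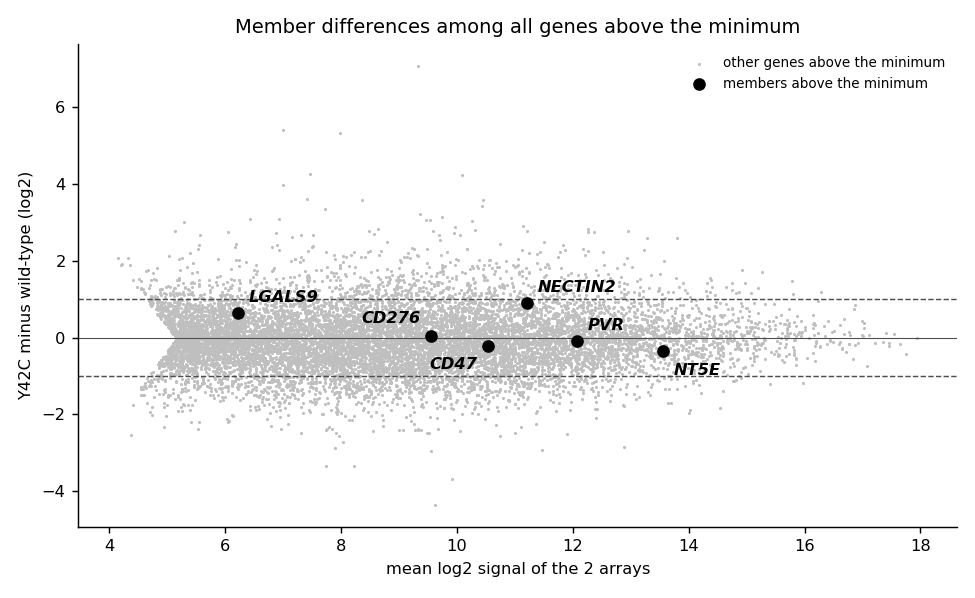
Difference between the lines (Y42C minus wild-type, log2) against the mean log2 signal of both arrays for the 11802 genes above the minimum (grey) and the 6 members among them (black). Dashed lines mark 2-fold in each direction. NECTIN2 lies at 0.91 and LGALS9 at 0.64, and all 6 fall inside the dashed lines.

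Among other nectins and their partners, differences ran between -1.10 and 1.61. Of 7 genes listed, 6 lay above the minimum, with a median of 0.26. In the Y42C line 2 were past 2-fold upwards and 1 downwards, beside 7.46% and 9.80% of all genes above the minimum. CADM1, a nectin-like adhesion molecule that binds CRTAM on lymphocytes, was 3.05-fold higher, with 10.79 in the Y42C line and 9.18 in the wild-type line. NECTIN1, which pairs with NECTIN3 across cell contacts, was 2.81-fold higher, with 13.39 in the Y42C line and 11.90 in the wild-type line. NECTIN3 was 2.14-fold lower, with 7.31 in the Y42C line and 8.41 in the wild-type line, and at -0.97 no longer 2-fold apart once a trend on signal level was removed. NECTIN4 differed by -0.22, and AFDN (afadin), which ties nectins to actin, by 0.50.

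LGALS9, a galectin that binds TIM-3 (the product of HAVCR2) on T cells, had 6.54 log2 signal in the Y42C line and 5.90 in the wild-type line. Its 1.56-fold difference stood in a bin with a median of 0.00 and a scaled deviation of 0.59, in which 32.4% of the genes lay at least as far from 0. Its near-identical copies LGALS9B and LGALS9C may share probes with it. LGALS9B had 5.33 in the Y42C line and 4.27, below the minimum, in the wild-type line, which gives at least 1.12-fold higher. LGALS9C had 5.88 in the Y42C line and 5.90 in the wild-type line, a difference of -0.02 whose sign turned under 2 of 3 other scalings.

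The wider galectin family differed in both directions. Of 15 other genes listed, 10 lay above the minimum, with a median of 0.12. The list counts LGALS3BP (0.27), which binds a galectin and is not one itself. The median lay between LGALS3BP and LGALS9C (-0.02), so its sign rests on that gene. In the deposited values 3 were past 2-fold upwards and 2 downwards, beside 7.46% and 9.80% of all genes above the minimum. LGALS3, a galectin common in epithelia, was 2.60-fold lower, with 11.66 in the Y42C line and 13.04 in the wild-type line. LGALS8 was 2.36-fold lower, with 9.33 in the Y42C line and 10.57 in the wild-type line. LGALS7B was 2.16-fold higher, with 8.07 in the Y42C line and 6.96 in the wild-type line, and its copy LGALS7 at least 1.89-fold higher; both encode a galectin of stratified epithelium and may share probes. LGALS1, which can kill activated T cells, differed by 0.76. Both LGALS7 and LGALS9B, the third gene past 2-fold upwards, have a bound under 2-fold because their wild-type values lay below the minimum. LGALS9B lay at 0.96 once a trend on signal level was removed.

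**Figure D3:**
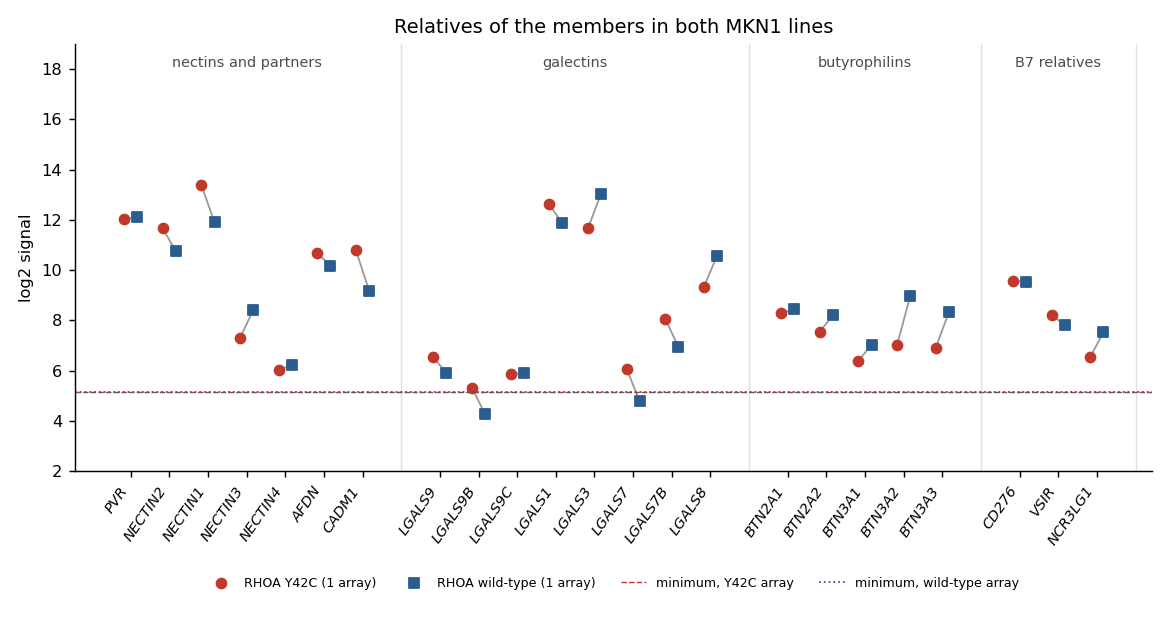
Log2 signal of PVR, NECTIN2, LGALS9, CD276 and their relatives on the Y42C array (red circles, left) and the wild-type array (blue squares, right), 1 array each, with each array's minimum as a line. NECTIN1, CADM1 and LGALS7B are higher and NECTIN3, BTN3A2, BTN3A3, LGALS3 and LGALS8 lower in the Y42C line, each by over 2-fold. LGALS7 and LGALS9B are also higher, with wild-type values below the minimum.

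CD47 had 10.43 log2 signal in the Y42C line and 10.64 in the wild-type line. Its difference of -0.21 was small for its bin, where 76.9% of the genes lay at least as far from 0. QPCTL, the enzyme that completes the SIRPA-binding end of CD47, differed by 0.01 (6.63 in Y42C, 6.62 in wild-type). Of 10 listed CD47 partners and phagocytosis signals named here, 7 lay above the minimum, with a median of 0.48. All 7 were higher in the Y42C line, 3 of them at least 2-fold, but QPCTL, QPCT (0.15) and LRP1 (0.16) were nearly level. Of all genes above the minimum, 45.2% were higher and 7.46% at least 2-fold higher. The list was chosen with earlier results of these data known, so these shares are a description and not a test. The 3 at least 2-fold higher included integrin subunits with which CD47 associates. ITGAV was 3.58-fold higher (12.44 in Y42C, 10.60 in wild-type) and ITGB3 3.39-fold higher (7.70 in Y42C, 5.94 in wild-type). The third was MFGE8 (2.31-fold, 12.84 in Y42C and 11.63 in wild-type), which bridges dying cells to phagocytes. CALR, a surface signal for engulfment, differed by 0.48, and THBS1, a ligand of CD47, was below the minimum on both arrays.

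The adenosine-forming pair split by detection. NT5E (CD73) had 13.37 log2 signal in the Y42C line and 13.73 in the wild-type line. It was 1.28-fold lower in the Y42C line, and 52.5% of the genes in its bin lay at least as far from 0. ENTPD1 (CD39) had 3.86 in the Y42C line and 3.31 in the wild-type line, 1.28 and 1.86 below the minimum. ENTPD1 is the enzyme that supplies NT5E with AMP on leukocytes and endothelium, and no fold is given for it here.

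Other enzymes, transporters and receptors of purines were listed to set NT5E in its pathway. The list also holds enzymes inside the cell, such as ENTPD5, ADK and NT5C, so its counts and median mix both. Of 39 named here, 28 lay above the minimum, with a median of -0.12. Past 2-fold were 3 upwards and 1 downwards, beside 7.46% and 9.80% of all genes above the minimum. ENTPD2, ENTPD3 and ENTPD8, the other surface enzymes of the ENTPD family, were below the minimum on both arrays, as was ENPP1. The ENPP1 relatives ENPP3 (6.05 in Y42C, 6.19 in wild-type) and ENPP2 (8.51 in Y42C, 8.30 in wild-type) were above it on both. The surface alkaline phosphatases ALPP and ALPG, which can also release phosphate from AMP, were higher in the Y42C line. ALPP was 2.46-fold higher, with 15.84 in the Y42C line and 14.54 in the wild-type line, and ALPG was 2.27-fold higher, with 16.88 in the Y42C line and 15.70 in the wild-type line. These near-identical genes may share probes, so they may be 1 observation. CD38, which degrades NAD outside the cell, differed by -0.60 (13.47 in Y42C, 14.07 in wild-type).

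Genes that remove or sense adenosine mostly stayed within 2-fold. ADK, which turns adenosine back into AMP inside the cell, differed by -0.89 and ADA, which converts it to inosine, by -0.60. DPP4, which holds ADA at the cell surface, differed by 0.78. The concentrative nucleoside transporter SLC28A3 was 2.62-fold higher, with 7.24 in the Y42C line and 5.85 in the wild-type line. SLC29A3, a lysosomal nucleoside transporter, lay just inside 2-fold at 0.97 and passed it under 3 other scalings (1.03 to 1.10). NT5C, a cytosolic nucleotidase, was 2.97-fold lower, with 6.20 in the Y42C line and 7.77 in the wild-type line. Of the adenosine receptors, ADORA1 differed by 0.04, ADORA2A by -0.69 and ADORA2B by 0.63.

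**Figure D4:**
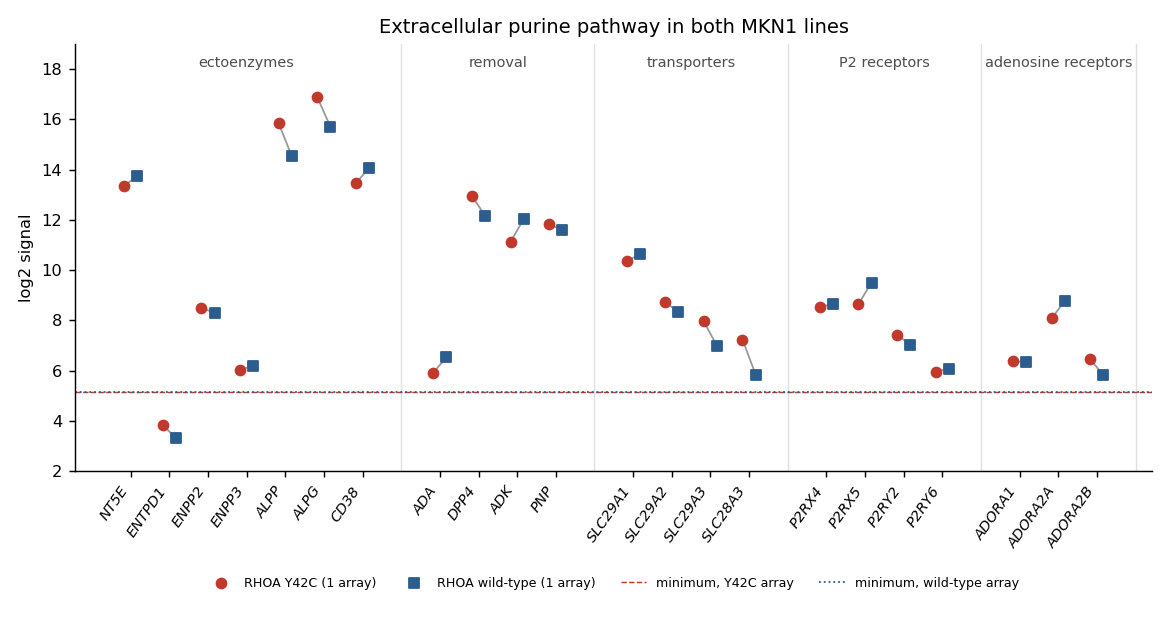
Log2 signal of NT5E, ENTPD1 and 20 other purine genes above the minimum, grouped by role, on the Y42C array (red circles, left) and the wild-type array (blue squares, right), 1 array each. ALPP, ALPG and SLC28A3 are over 2-fold higher in the Y42C line, NT5E is 1.28-fold lower, and ENTPD1 lies below both minimum lines.

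Receptors of lymphocytes and phagocytes, those of the members and others, were mostly not measured above background. PDCD1, the gene of PD-1, was not among the named genes, so the receptor of CD274 and PDCD1LG2 was not measured. Of 15 lymphocyte and phagocyte receptors named here, 12 were below the minimum on both arrays. HAVCR2 had 5.80 in the Y42C line and 4.89, below the minimum, in the wild-type line (at least 1.55-fold higher). TIGIT lay close to the minimum (5.30 in Y42C, 5.14 in wild-type), and SIRPA had 6.15 in the Y42C line and 6.30 in the wild-type line. Of 17 leukocyte markers, 8 were above the minimum in the Y42C line and 6 in the wild-type line. Of those 8, 6 were higher in the Y42C line and 2 lower, with a median of 0.46. Among all genes above the minimum, 45.2% were higher. Summed over all 17 markers, those below the minimum included, signal had no single direction. The log2 sum was 84.8 in the Y42C line and 83.6 in the wild-type line. The sum of linear signal, in which CD68 weighs most, was 1780 in the Y42C line and 2250 in the wild-type line. The leukocyte marker PTPRC (CD45) had 5.39 in the Y42C line and 4.61 in the wild-type line, and CD14 had 5.67 in the Y42C line and 7.45 in the wild-type line. CD68 (10.15 in Y42C, 10.66 in wild-type), CD79A (6.81 in Y42C, 6.73 in wild-type), NKG7 (6.77 in Y42C, 6.13 in wild-type), ITGAX (6.47 in Y42C, 5.76 in wild-type) and CSF1R (6.42 in Y42C, 6.14 in wild-type) were above the minimum on both arrays. CD3E was above it in the Y42C line (5.67) and below it in the wild-type line (4.70). The other 9, among them CD3D, CD2, MS4A1, ITGAM, LYZ and CD8A, were below the minimum on both arrays. Of the endothelial markers 4 of 7 and of the fibroblast markers 2 of 7 were above the minimum on each array, among them the proteoglycan LUM (14.37 in Y42C, 12.09 in wild-type). The part of these markers in the differences of LGALS9 and HAVCR2 was not tested. Of 10 epithelial markers, 7 were above the minimum in the Y42C line and 8 in the wild-type line. KRT8, KRT18, KRT19, KRT7 and EPCAM lay at 13.3 or above on both arrays. CDH1 (3.86 in Y42C, 3.92 in wild-type) and GRHL2 (4.76 in Y42C, 3.79 in wild-type) were below the minimum on both, and ELF3 was below it in the Y42C line (4.88) and above it in the wild-type line (5.59). RHOA itself had 16.30 in the Y42C line and 16.47 in the wild-type line. Introduced and endogenous RHOA cannot be told apart in these values.

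Among other inhibitory ligands and costimulators of the TNF family, no gene above the minimum was 2-fold apart. Of 16 listed, 7 lay above the minimum, with a median of -0.19. Of all genes above the minimum, 7.46% were 2-fold higher and 9.80% 2-fold lower. CD58, the ligand of CD2, was the most positive at 0.81 (9.11 in Y42C, 8.30 in wild-type), followed by TNFSF4 (OX40 ligand) at 0.68. CD24, a second signal that protects cells from macrophages, was lowest together with CD40, both at -0.38. CD200, FGL1 and IDO1 were below the minimum on both arrays. So was TNFRSF14, which had 5.03 in the Y42C line, 0.11 below the minimum, and 3.88 in the wild-type line.

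**Figure D5:**
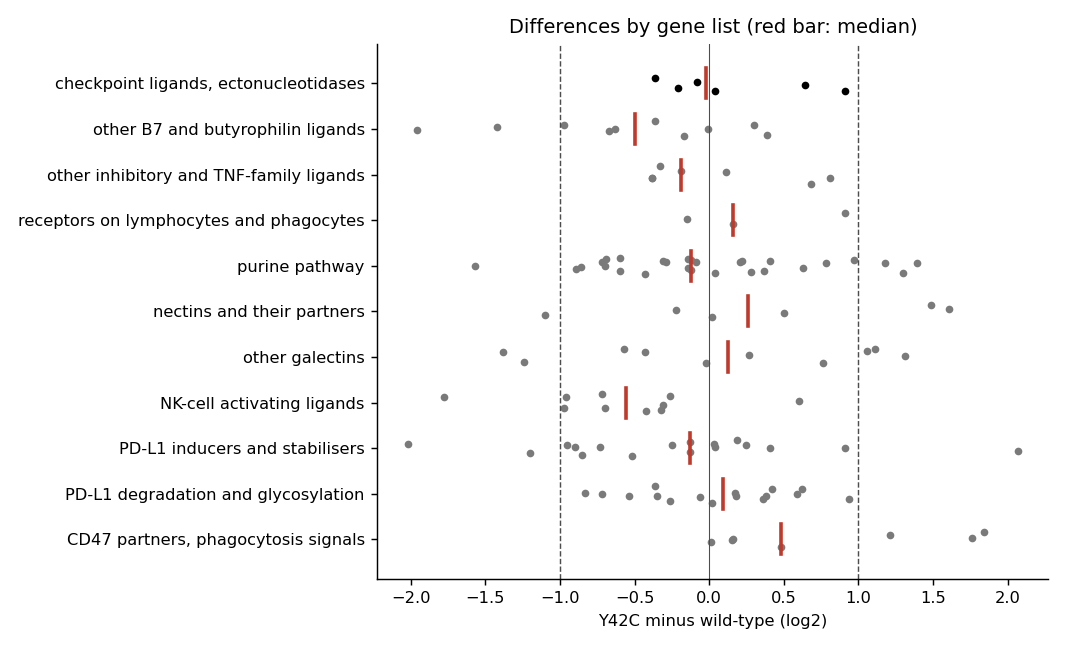
Difference between the lines (Y42C minus wild-type, log2) of every gene above the minimum in the 10 checkpoint and ectonucleotidase genes (black) and in each list of related genes (grey); a gene may stand in 2 lists. The red bar is the list's median and the dashed lines mark 2-fold. The members' median is -0.02, and the lists' medians run between -0.56 and 0.48.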

How the data were processed

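Total RNA of 2 MKN1 lines was labelled as biotinylated cRNA for Affymetrix arrays, 1 per line, per the labels' protocols. The authors used Affymetrix Expression Console, per the submitters' processing notes; its version, background correction, summary method and normalization: not given in the sources used here. Their deposited values (21448 probe sets, 2.23 to 18.16) were taken as log2 signal from that range, and every fold assumes this base. Array medians were 6.36 (Y42C) and 6.42 (wild-type). Arrays have no read depth, and with 2 of them the precision is limited.

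The platform annotation named 17709 probe sets with 1 symbol each, 0 with several, and left 3739 unnamed here; all those named matched RefSeq by Entrez identifier. Probe sets of the same gene were averaged (20 genes, no member among them). Genes entered the counts if either array reached the 95th percentile of 349 olfactory receptor genes on that array. For a gene below this minimum on 1 array, the fold is a lower bound against the minimum. Called means at least 2-fold apart, and no p-value was computed. The text names all 10 members and, of each related list, the genes 2-fold apart and those at its ends, plus IRF1, JAK2, CMTM6, MYC and EGFR; further genes were picked after their values were known. Members and lists were chosen with earlier results of these data known. The results were recomputed with centred arrays, with quantile normalization, without a lowess trend on signal level (span 0.3), with 16 added to the linear signal, and with other minimums, thresholds and probe set rules. The code was tested on simulated data. No genome build is named with the array values, so the coordinates given are those of the RefSeq promoters. Software was Python 3.11.15 with NumPy 2.4.6, pandas 2.3.3, matplotlib 3.10.9 and statsmodels 0.14.6.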

Additional observations from a re-analysis of the deposited data

How the results depend on the processing

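No member was at least 2-fold lower under any of the 11 alternatives. The count at least 2-fold higher was 0 as deposited and under 9 of them. It was 1 once the trend on signal level was removed, where NECTIN2 reached 2-fold, and 2 at a 1.5-fold threshold, where NECTIN2 and LGALS9 passed, beside 17.8% of all genes above the minimum. The median of the members, -0.02 as deposited, was 0.30 with no minimum, which admits the 4 members below it; under the other alternatives it lay between -0.02 and 0.07, a change of sign for a value close to 0. Over the 6 alternatives for single genes, NECTIN2 lay between 0.90 and 0.97 apart from the 2-fold just given, LGALS9 between 0.53 and 0.71, NT5E between -0.37 and -0.30, CD47 between -0.21 and -0.10, PVR between -0.08 and -0.02, and CD276 between 0.04 and 0.16; the sign held for all 6. No paired analysis was possible because there was 1 array per line, and no array could be left out. Of the relatives named, NECTIN3 and LGALS9B dropped under 2-fold without the trend, and SLC29A3 passed 2-fold under 3 scalings. With 1 array per line, the spread of genes of like signal (0.56 to 0.80 in the members' bins) was the only scale for a difference, and it is not a replicate error.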

Other observations

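Of 11 listed ligands that activate natural killer cells, 10 lay above the minimum and 9 of these were lower in the Y42C line, beside 54.2% of all genes above the minimum. The 1 of 10 at least 2-fold lower was at the background of 9.80%. The median was -0.56 beside -0.07 over all genes. ULBP1, a ligand of the activating receptor NKG2D, was 3.43-fold lower, with 5.54 in the Y42C line and 7.32 in the wild-type line. NCR3LG1 (-0.97) and ULBP2 (-0.96) came close to 2-fold, and MICB differed by -0.72. MICA, a near relative of MICB, was the exception at 0.60 (10.72 in Y42C, 10.12 in wild-type). Related genes of this group may share probes. The count of 9 was the same under centring, quantile normalization and removal of a trend on level. This list too was chosen with earlier results of these data known, so the shares beside it are a description and not a test.

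Among the 3 measured genes on each side of a member, those above the minimum differed in both directions beside most of the members above the minimum. The 4 beside NECTIN2 lay between -1.01 and 1.12, with 2 on each side of 0. Beside LGALS9, KSR1 and NLK differed by 1.59 and 0.91 and WSB1 by -1.23. Beside CD47, IFT57 and BBX differed by -1.51 and -1.25, CBLB by 0.68 and MYH15, with its wild-type value below the minimum, by 0.83. Beside CD276, which was level, all 3 were higher in the Y42C line, as were 45.2% of all genes above the minimum. The difference was 0.81 for NPTN and 1.68 for LOXL1. HCN4, with its wild-type value below the minimum, was at least 2.14-fold higher. The 2 beside PVR lay at -0.27 and 0.32. The 3 neighbours of NT5E above the minimum lay between -0.28 and 0.18.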
